A study of Mus musculus with 12 samples.

Results

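Control blastocysts of the mouse were compared between 4 h and 7 h after E3.5 (embryonic day 3.5), the first hours after their transfer into medium with solvent in place of inhibitor. Members were chosen from the labels as the libraries with DMSO at +4 h and +7 h, with 2 libraries for each time point, which were 4 of the 12 samples of the series. Genes were described when their value was at least 0 on the log2 scale of RPKM (reads scaled to transcript length and to the size of the library), which is 1 RPKM, in at least 2 of these 4 libraries. This held for 10776 of 34245 genes, and of the 23469 genes left out 14556 had no read in any of the 4 libraries. At the edge of this limit, the second-highest values of Plxnb1 and Slc19a3 were 1 and 1.0005 RPKM, just inside, and those of Atp2c2 and Qrfpr were 0.99962 and 0.99924 RPKM, just outside.

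The series measured polyadenylated RNA of blastocysts kept with or without an inhibitor of p38-MAPK, a stress-activated protein kinase, for 4, 7 or 10 h. All embryos came from superovulated F1 hybrid females (C57Bl6 x CBA/W) mated with F1 males, were taken from the oviduct as 2-cell embryos at E1.5, and were grown to E3.5 in KSOM medium with added amino acids. From E3.5 the control embryos stayed in this medium with DMSO, the solvent, and the p38-MAPKi embryos received 20 µM SB220025 in the same solvent. Each library was made from a pool of 30 embryos and each group held 2 libraries, so neither single embryos nor the cell types within them could be told apart, and the spread within a group rests on 2 values.

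A blastocyst at this stage has an outer epithelium, the trophectoderm, which pumps fluid into the cavity, and an inner cell mass in which epiblast and primitive endoderm separate from each other. Selection on poly(A) tails enriches messenger RNA, while ribosomal RNA, small structural RNAs and the mRNA of replication-dependent histones lack such a tail and reach a library only in part. Transient response genes encode unstable transcripts that cells induce within a short time after a change of medium, a growth factor or stress.

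The control libraries held 17097675 and 18262011 reads at +4 h and 21112831 and 23352633 reads at +7 h, in the order of replicates 1 and 2 used for all pairs of values here. Replicate 1 at +4 h stood apart from the other control libraries. Loci that collect ribosomal RNA reads, a list of 6 measured loci, took 5.28% (5.27 to 5.29%) of its reads, with the 95% Wilson interval in parentheses, against 0.903% (0.899 to 0.908%) in replicate 2 at +4 h. The share was 0.726% (0.723 to 0.730%) and 0.511% (0.508 to 0.514%) in the +7 h libraries. These intervals cover counting error only, since reads were not tagged by molecule. The median over tested genes was 2.93 on the log2 RPKM scale in replicate 1 at +4 h and 3.12, 3.12 and 3.14 in the other libraries. The values hold no spiked-in RNA and are shares of a library, so the high share of ribosomal RNA reads and the low median of this library were measured together. Calls and list medians are therefore also given without replicate 1 at +4 h. The median log2 fold change of all tested genes from +4 h to +7 h was 0.11. It was 0.07 with the ribosomal RNA loci left out of the library totals, an alternative chosen after seeing the data.

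Marker genes of the cell types of a blastocyst were present in every control library. The trophectoderm gene Cdx2, a transcription factor that sets up this lineage, was at 195 and 219 RPKM at +4 h and 237 and 190.4 RPKM at +7 h. Nanog, a transcription factor of the epiblast, was at 131 and 141 RPKM at +4 h and 118 and 123 RPKM at +7 h. Gata6, which directs cells to primitive endoderm, was at 86.7 and 105 RPKM at +4 h and 101 and 129 RPKM at +7 h. The libraries of the time points overlapped for Cdx2 and Gata6, while Nanog was lower in both +7 h libraries and did not pass the test. Among 24 primitive endoderm markers Foxa2 and Fst had no read in the 4 libraries, Rspo3 and Sox7 had under 10 reads in each, and Sox17 was low, at 1.53 and 2.19 RPKM at +4 h and 3.72 and 1.94 RPKM at +7 h. In pools of whole embryos, fewer cells of a type and less RNA per cell cannot be told apart.

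Markers of other sources were low. None of the 13 cumulus and oviduct markers was tested, 7 of them, among them Cyp19a1, had no read, and their summed level was 0.591 and 0.935 RPKM at +4 h and 1.27 and 2.31 RPKM at +7 h, with Ovgp1 the most abundant. None of the 7 sperm markers was tested either, Tnp1 had no read, and the sum was 1.46 and 0.531 RPKM at +4 h and 0.555 and 0.939 RPKM at +7 h. Prm1 was the most abundant of them in both +4 h libraries and Odf1 in both +7 h libraries. Of 12 blood and fibroblast markers 2 were tested and 7, among them Ptprc and Hbb-bs, had no read. Their sum was 5.96 and 5.07 RPKM at +4 h and 7.92 and 6.14 RPKM at +7 h, most of it Cd68, a lysosomal protein, and Thy1. Of 15 oocyte and maternal markers 2 were tested, Padi6 and Zp3, and the sum was 5.62 and 6.90 RPKM at +4 h and 6.48 and 7.01 RPKM at +7 h. Padi6 was the most abundant of these except in replicate 1 at +7 h, where Zp3 was. The summed level of cumulus and oviduct markers was higher in both +7 h libraries, and the part of these sources in the results was not tested.

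Limma called 53 of 10776 genes (0.492%) at an adjusted p under 0.05, of which 31 (0.288%) were higher and 22 (0.204%) lower at +7 h. The falls included loci of ribosomal RNA reads, histone genes and the RNA components of RNases. Of the 31 rises 23 (74.2%) were protein-coding genes, against 95.2% of all tested genes. Gpx3, Plk2, Btg2 and Cdkn1c were among these rises. Of the 22 falls, 12 belonged to the ribosomal RNA loci (5), structural RNAs (2) or replication-dependent histones (5), lists that held 31 (0.288%) of the tested genes. Of these 12 falls 9 were tested without replicate 1 at +4 h, where 8 were below 0 and 1 was called, and the median log2 fold change of the 9 was -0.79 in place of -1.88. Both +7 h libraries lay above both +4 h libraries in 2726 genes (25.3%) and below them in 398 (3.69%). The median log2 fold change of all tested genes was 0.11, with quartiles of 0.01 and 0.22, so each change is to be read against this shift, and 80 genes differed by at least 1 on the log2 scale. At an unadjusted limma p under 0.05 there were 516 genes, 425 higher and 91 lower, where 539 correspond to the threshold.

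Limma gave each gene the spread of the trend over expression in this fit, so the distance between the replicates of a gene had no part in the test of that gene. The count was 0 with each library centred on its median (limma, 320 genes with an unadjusted p under 0.05). In that fit the distance between the replicates of a gene did have a part in its test. The log2 fold change of Gm15564 went from -2.64 to -2.74 and that of Gpx3 from 1.15 to 1.04, about as large as before. Without replicate 1 at +4 h limma called 10 genes, 9 of them among the 53, and the median of all genes was 0.02. Of the 53 genes, 12 were called without replicate 2 at +4 h, 31 without replicate 1 at +7 h and 20 without replicate 2 at +7 h, where limma called 17, 58 and 37 genes. Beside a gene, log2 fold changes with 1 library left out stand in the order +4 h replicate 1, +4 h replicate 2, +7 h replicate 1 and +7 h replicate 2, as do medians beside a list. No fold is given where 3 reads or fewer were left in all at a time point. The rises Gm1673, Gm25395, Gm25820, Ltb4r2 and Tmem238 reached 1 RPKM at +7 h alone, and the falls AC118222.2, Gm20274, Hist1h2ak, Hist1h2bb and Hist1h3g at +4 h alone. These genes had to differ to be tested, so their direction, and their calls with 1 library left out, are no sign of stability. Gm15564 kept its call with each of these 4 libraries left out in turn, and Gpx3, Lars2 and 1700003M07Rik kept it in 3 of the 4 cases.

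**Figure D1:**
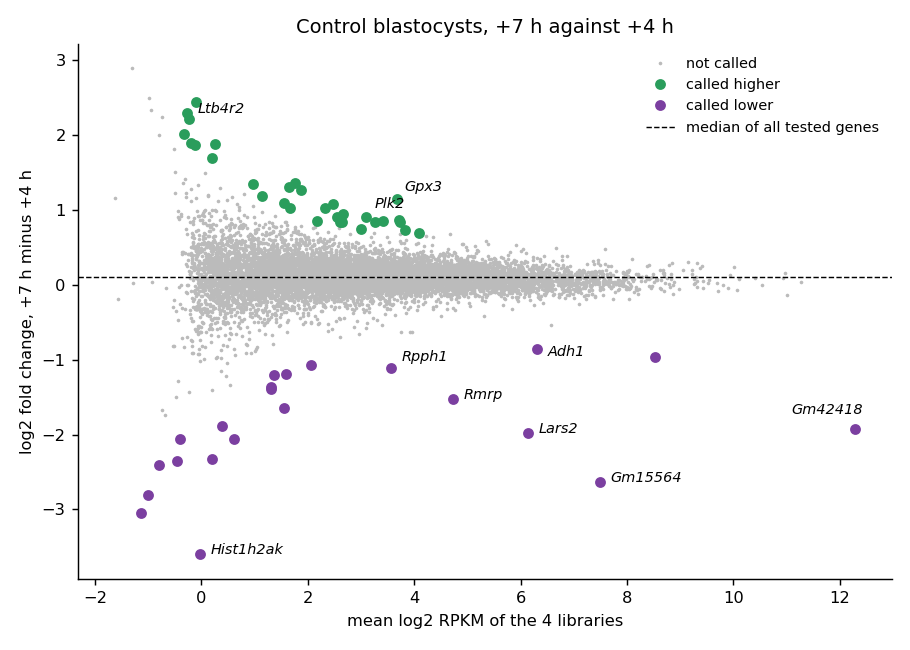
Log2 fold change from +4 h to +7 h in control blastocysts against mean log2 RPKM of the 4 libraries, 1 point per tested gene, with 31 genes called higher in green and 22 called lower in purple. The dashed line is the median of all tested genes, 0.11, and the falls reach further from it than the rises among abundant genes.

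The most abundant of the genes that fell are loci that collect reads of the ribosomal RNA repeat. Gm42418 (ENSMUSG00000098178.1; chromosome 17, 39846958 to 39848788, GRCm38), a noncoding locus that holds ribosomal RNA sequence, was at 25354 and 3768 RPKM at +4 h and 3238 and 2051 RPKM at +7 h. Replicate 1 at +4 h was far above the other libraries, and replicate 2 at +4 h was also above both +7 h libraries. The log2 fold change was -1.92 (standard error 0.33, limma adjusted p = 8.06e-06), and it was -0.55, -3.30, -2.25 and -1.59 with 1 library left out, called without +7 h replicate 1 or +7 h replicate 2.

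Lars2, which encodes the mitochondrial leucyl-tRNA synthetase and whose locus also collects ribosomal RNA reads (ENSMUSG00000035202.8; chromosome 9, 123366927 to 123462666), was at 297 and 65.6 RPKM at +4 h and 39.9 and 31.3 RPKM at +7 h. Its time points did not overlap, and replicate 1 at +4 h was again the high one. The log2 fold change was -1.98 (standard error 0.19, limma adjusted p = 2.91e-22), and it was -0.89, -3.07, -2.16 and -1.81 with 1 library left out, called except without +4 h replicate 1. Gm15564, an antisense locus (ENSMUSG00000086324.8; chromosome 16, 35966752 to 35983230), was at 743 and 268 RPKM at +4 h and 84.8 and 60.8 RPKM at +7 h. Both +4 h libraries were well above both +7 h libraries, and the log2 fold change of -2.64 (standard error 0.20, limma adjusted p = 3.28e-35) was -1.90, -3.37, -2.87 and -2.40 with 1 library left out, called in each case. At +10 h the control libraries were at 307 and 55.3 RPKM, so replicate 1 at +10 h was above replicate 2 at +4 h.

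A further pair of loci of this list fell. Gm26917 was at 749 and 356 RPKM at +4 h and 245 and 287 RPKM at +7 h (log2 fold change -0.96, and -0.42, -1.50, -0.85 and -1.07 with 1 library left out, called without +7 h replicate 1 or +7 h replicate 2), and AY036118, which lies within Gm42418, was at 9.12 and 2.97 RPKM at +4 h and 2.57 and 1.07 RPKM at +7 h (log2 fold change -1.65, and -0.84, -2.46, -2.29 and -1.02 with 1 library left out, called without +4 h replicate 2 or +7 h replicate 1). Both +4 h libraries were above both +7 h libraries for these loci. Reads that fit more than 1 place, and the strand on which reads of overlapping loci were counted, are not described in the records, so the split of reads between these loci is uncertain. The remaining locus, CT010467.1, was at 1.64 and 1.53 RPKM at +4 h and 1.72 and 1.56 RPKM at +7 h, with overlap and no call. Of the 6 loci 5 were called lower, against 0.204% of all tested genes. The median log2 fold change of the 6 was -1.79 against 0.11 for all tested genes, and -0.69, -2.77, -2.20 and -1.33 with 1 library left out. The summed level of the list was 27153 and 4462 RPKM at +4 h and 3612 and 2433 RPKM at +7 h.

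Structural RNAs gave few reads, 1049 and 165 at +4 h and 330 and 172 at +7 h. Of 72 measured genes of this kind, 50 had no read in the 4 libraries and 10 were tested. Of these 10, 2 were called higher and 2 lower, against 0.288% and 0.204% of all tested genes. The 2 called higher reached 1 RPKM at +7 h alone, so a rise was built into their test. Rmrp, the RNA component of RNase MRP, which processes ribosomal RNA (ENSMUSG00000088088.1; chromosome 4, 43492788 to 43493058), was at 117 and 17.2 RPKM at +4 h and 27.6 and 8.85 RPKM at +7 h. Rpph1, the RNA component of RNase P, which trims precursors of transfer RNA (ENSMUSG00000092837.1; chromosome 14, 50807449 to 50807767), was at 71.5 and 4.29 RPKM at +4 h and 11.6 and 5.64 RPKM at +7 h. For both RNAs replicate 1 at +4 h was the highest library and replicate 2 at +4 h lay within or below the +7 h values, so the time points overlapped.

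The log2 fold change of Rmrp was -1.52 (standard error 0.19, limma adjusted p = 7.61e-13) and it was -0.14, -2.91, -2.34 and -0.70 with 1 library left out, called without +4 h replicate 2 or +7 h replicate 1. That of Rpph1 was -1.12 (standard error 0.19, limma adjusted p = 1.01e-05), and it was 0.91, -3.15, -1.64 and -0.60 with 1 library left out, called without +4 h replicate 2 or +7 h replicate 1, so without replicate 1 at +4 h its direction turned. The RNAs called higher were 2 small Cajal body RNAs, a class that guides the modification of spliceosomal RNAs. They were Gm25395, with 4 and 0 reads at +4 h and 11 and 11 reads at +7 h, and Gm25820, with 0 and 0 reads at +4 h and 3 and 7 reads at +7 h. These counts are near 0 and allow no fold. Gm25395 kept its call without replicate 1 at +4 h and lost it without replicate 2 at +4 h, Gm25820 lost it without either of them, and neither was tested without a +7 h library. The median log2 fold change of the 10 tested members was -0.59 against 0.11 for all tested genes. It was 0.10, -0.77, -0.83 and 0.07 with 1 library left out, and it did not move with Gm25820 set to a floor of 3 reads per library. Their summed level was 211 and 33.2 RPKM at +4 h and 53.4 and 27.4 RPKM at +7 h.

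**Figure D2:**
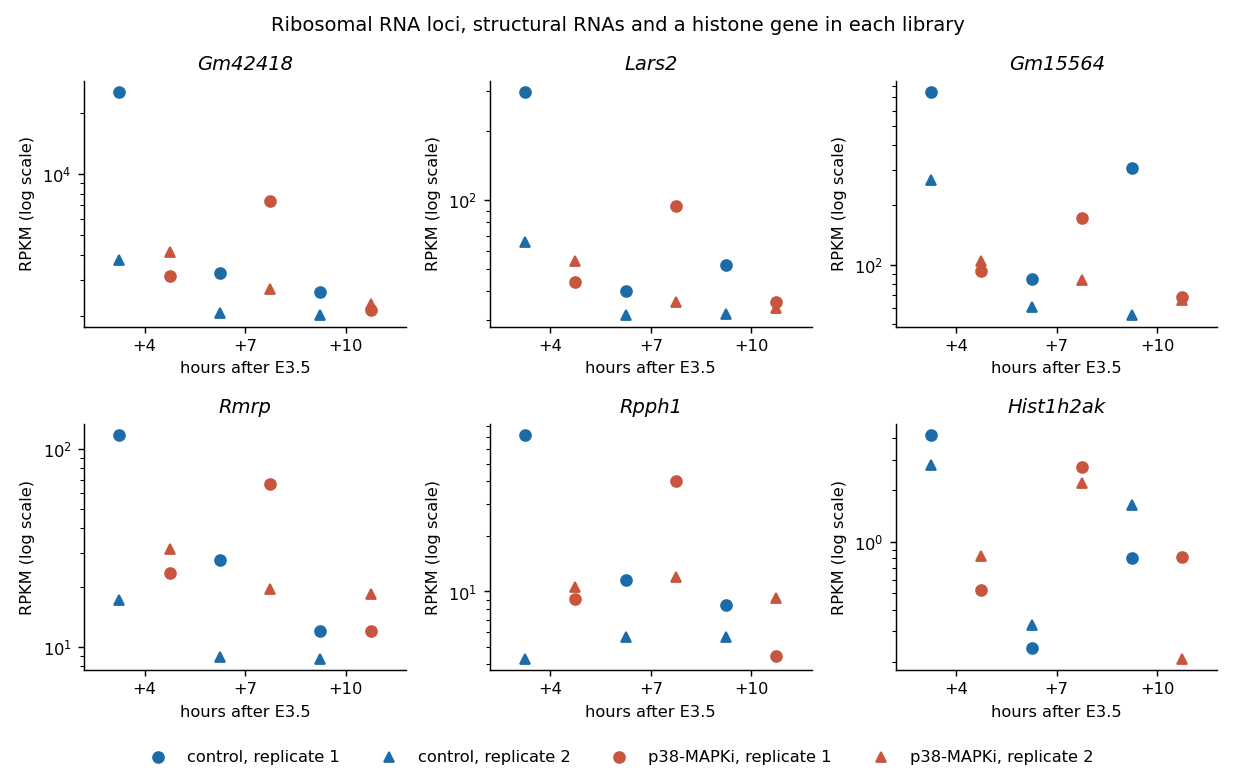
RPKM on a log scale of 3 ribosomal RNA loci, 2 structural RNAs and a histone gene against hours after E3.5, 1 point per library, with control libraries in blue and p38-MAPKi libraries in red, shifted sideways for sight. Control replicate 1 at +4 h is the highest library in each panel, and in the Rmrp and Rpph1 panels control replicate 2 at +4 h is not above both control libraries at +7 h.

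Among the histone genes the largest fall was that of Hist1h2ak, which encodes a core histone of the H2A family (ENSMUSG00000063021.3; chromosome 13, 21753435 to 21753827). It was at 4.17 and 2.79 RPKM at +4 h and 0.241 and 0.327 RPKM at +7 h, from 28 and 20 reads at +4 h and 2 and 3 reads at +7 h. Both +4 h libraries were far above both +7 h libraries, and each value rests on few reads. The log2 fold change was -3.60 (standard error 0.47, limma adjusted p = 4.03e-11). It reached 1 RPKM at +4 h alone, so a fall was built into its test. It was called without either +7 h library, which for such a gene is no sign of stability, and was not tested without a +4 h library. Summed over replicates there were 48 reads at +4 h and 5 at +7 h, a ratio of 0.0828 per read of the libraries, with an exact 95% interval for counting error from 0.0257 to 0.207. At +10 h the control libraries were at 0.802 and 1.64 RPKM, between the values of the earlier time points.

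The mRNA of these histones ends in a stem-loop in place of a poly(A) tail, and stretches near the annotated 3′ end of 2 called histone genes and the last bases of 2 genes that rose are shown for this contrast. Capitals mark the stem-loop in the histone genes and the letters AATAAA, the polyadenylation signal, in the others.
Hist1h2bb: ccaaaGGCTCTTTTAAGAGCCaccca
Hist1h3g: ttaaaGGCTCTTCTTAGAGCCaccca
Plk2: ctcttggcAATAAAgagtatgacatagaaa
Cdkn1c: caggttctaAATAAAgaggcccaacaaaaa
The sequences are from GENCODE M21 transcripts on the sense strand. From the last base in capitals to the end of the annotated transcript there are 23 bases in Hist1h2bb, 47 in Hist1h3g, 16 in Plk2 and 15 in Cdkn1c, so the printed histone stretches stop short of that end. Hist1h2bb lies on chromosome 13 at 23746734 to 23747241 and Hist1h3g at 23535422 to 23535951 (GRCm38). A stem of 6 bases that begins with GGC, with a loop of 4 bases and its exact reverse complement, was found in the last 100 bases of 31 of 10741 tested genes with a sequence (0.289%), in 6 of 16 tested histone genes and in 2 of the 5 called ones. It was in none of the 31 genes called higher and in 2 of the 22 called lower. AATAAA was found in the last 40 bases of 7981 tested genes (74.3%), of 12 of the 31 called higher (38.7%) and of 6 of the 22 called lower (27.3%), and in none of the called histone genes. It was in 3 of the 16 tested histone genes. A gene was counted where any of its annotated transcripts held the match, and a match describes the annotated model alone.

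The other called histone genes were less separated. Hist1h3g, a histone H3 gene, was at 3.97 and 1.65 RPKM at +4 h and 0.804 and 0.323 RPKM at +7 h (log2 fold change -2.33, and -2.99 and -1.67 without a +7 h library, called in both, and not tested without a +4 h library). Hist1h1b, a linker histone gene, was at 5.35 and 1.18 RPKM at +4 h and 0.446 and 1.04 RPKM at +7 h (log2 fold change -1.88, and -0.79, -2.98, -1.28 and -2.49 with 1 library left out, called without +4 h replicate 2 or +7 h replicate 2). Hist1h2bb, a histone H2B gene, had 11 and 13 reads at +4 h and 9 and 0 reads at +7 h (log2 fold change -2.40, and no fold and -0.67 without a +7 h library, called without +7 h replicate 1, and not tested without a +4 h library). For these genes both +4 h libraries were above both +7 h libraries. Replicate 2 at +7 h, the library with no read of Hist1h2bb, was also the low one for Hist1h4b, a histone H4 gene at 3.98 and 2.48 RPKM at +4 h and 2.62 and 0.216 RPKM at +7 h, whose time points overlapped (log2 fold change -2.06, and -1.72, -2.40, no fold and -0.26 with 1 library left out, called without +7 h replicate 1).

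Of 67 replication-dependent histone genes measured, 16 were tested. Limma called 5 lower and 0 higher, against 0.204% and 0.288% of all tested genes. It gave an unadjusted p under 0.05 to 7 lower and 0 higher genes, and to 91 lower and 425 higher of all tested genes. Of the 5, Hist1h2ak, Hist1h3g and Hist1h2bb reached 1 RPKM at +4 h alone, so falls were built into this count and into the median of the list. Their median log2 fold change was -0.37 against 0.11 for all tested genes, and -0.04, -0.56, -0.47 and -0.10 with 1 library left out. The whole list took 1417 and 921 reads at +4 h and 1178 and 907 reads at +7 h, and its summed level was 97.9 and 55.2 RPKM at +4 h and 56.6 and 40.8 RPKM at +7 h. The most abundant member was Hist1h2bc, at 8.70 and 10.2 RPKM at +4 h and 12.1 and 7.67 RPKM at +7 h, with overlapping time points and no call.

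The falls outside these lists were mostly of noncoding or predicted genes with few reads. AC118222.2, a long intergenic noncoding RNA, had 5 and 7 reads at +4 h and 0 and 0 reads at +7 h, and it kept its call when either +7 h library was left out and was not tested without a +4 h library. Gm20274, a sense intronic RNA, had 11 and 17 reads at +4 h and 6 and 1 reads at +7 h (log2 fold change -2.81, and no fold and -1.45 without a +7 h library, called without +7 h replicate 1, and not tested without a +4 h library). The antisense RNA Gm27234 was at 2.62 and 7.92 RPKM at +4 h and 2.85 and 1.40 RPKM at +7 h (log2 fold change -1.19, and -1.99, -0.39, -1.70 and -0.67 with 1 library left out, called without +4 h replicate 1 or +7 h replicate 1). Replicate 2 at +4 h was the high library of Gm27234, whose time points overlapped, and it was also the high one of the antisense RNA Gm29439, at 3.91 and 9.25 RPKM at +4 h and 1.95 and 4.21 RPKM at +7 h with overlap (log2 fold change -1.07, and -1.69, -0.45, -0.52 and -1.62 with 1 library left out, called without +4 h replicate 1 or +7 h replicate 2). Gm10351 was at 2.81 and 5.69 RPKM at +4 h and 1.14 and 2.06 RPKM at +7 h, with replicate 2 at +4 h high and no overlap (log2 fold change -1.39, and -1.90, -0.88, -0.96 and no fold with 1 library left out, called without +4 h replicate 1 or +7 h replicate 2). Gm23925 had 7 and 12 reads at +4 h and 5 and 5 reads at +7 h (log2 fold change -1.204, and -1.55, -0.86, -1.28 and -1.13 with 1 library left out, called without +7 h replicate 1). AC173482.5 had 8 and 10 reads at +4 h and 0 and 8 reads at +7 h, where replicate 1 at +7 h stood alone at 0 (log2 fold change -2.07, and -2.18, -1.95, -0.56 and no fold with 1 library left out, called without +7 h replicate 2).

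Outside these lists the protein-coding genes that fell were Hsbp1l1, Tmsb15b1 and Adh1. Hsbp1l1, a relative of a heat shock factor binding protein, was at 4.68 and 3.41 RPKM at +4 h and 2.20 and 1.10 RPKM at +7 h, with both +4 h libraries above both +7 h libraries (log2 fold change -1.37, limma adjusted p = 0.00111, and -1.14, -1.59, -1.87 and -0.86 with 1 library left out, called without +7 h replicate 1). Tmsb15b1, a thymosin that binds actin, had 15 and 11 reads at +4 h and 10 and 1 reads at +7 h (log2 fold change -2.35, and -2.08, -2.62, no fold and -0.62 with 1 library left out, called without +7 h replicate 1). Adh1, an alcohol and retinol dehydrogenase, was far more abundant, at 91.1 and 124 RPKM at +4 h and 97.3 and 35.7 RPKM at +7 h, and was low in replicate 2 at +7 h alone. Its log2 fold change of -0.85 (limma adjusted p = 0.00292) was -1.07, -0.63, -1.58 and -0.13 with 1 library left out, called without +7 h replicate 1.

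The largest rise among the genes tested at 10 RPKM or more was that of Gpx3 (ENSMUSG00000018339.11; chromosome 11, 54902453 to 54910377), a secreted glutathione peroxidase that reduces peroxides. It was at 7.81 and 9.42 RPKM at +4 h and 20.8 and 17.3 RPKM at +7 h. Gpx3 thus reached 10 RPKM at +7 h alone, so a rise was built into this rank. Both +7 h libraries were well above both +4 h libraries. The log2 fold change was 1.15 (standard error 0.19, limma adjusted p = 4.27e-06), and it was 1.01, 1.28, 1.01 and 1.28 with 1 library left out, called except without +4 h replicate 1. At +10 h the control libraries were at 24.0 and 11.1 RPKM, on either side of the +7 h values.

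Plk2, a kinase that acts early in the cell cycle and is induced by serum and by p53 (ENSMUSG00000021701.8; chromosome 13, 110395046 to 110400844), was at 5.80 and 6.79 RPKM at +4 h and 11.3 and 12.1 RPKM at +7 h. Btg2, an antiproliferative factor that promotes the shortening of poly(A) tails (ENSMUSG00000020423.6; chromosome 1, 134075170 to 134079120), was at 11.96 and 14.9 RPKM at +4 h and 21.2 and 21.9 RPKM at +7 h. Cdkn1c, an imprinted inhibitor of cyclin-dependent kinases (ENSMUSG00000037664.13; chromosome 7, 143458339 to 143461050), was at 3.44 and 3.54 RPKM at +4 h and 9.87 and 5.10 RPKM at +7 h. In all of these both +7 h libraries were above both +4 h libraries, and for Cdkn1c replicate 1 at +7 h was well above replicate 2. The log2 fold changes were 0.90 for Plk2 (standard error 0.20, limma adjusted p = 0.00292), 0.69 for Btg2 (0.19 and 0.0490) and 1.02 for Cdkn1c (0.22 and 0.00258). That of Plk2 was 0.79, 1.01, 0.95 and 0.85 with 1 library left out, called without +7 h replicate 1. Btg2 was at 0.53, 0.85, 0.72 and 0.67 with 1 library left out, no longer called. For Cdkn1c the values were 1.002, 1.04, 0.55 and 1.499 with 1 library left out, called without +7 h replicate 2. At +10 h Plk2 was at 12.2 and 9.90 RPKM, Btg2 at 28.9 and 22.0 RPKM and Cdkn1c at 7.99 and 6.34 RPKM, all above the +4 h libraries.

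Slc27a3, an acyl-CoA synthetase of the fatty acid transport family, was at 9.08 and 10.3 RPKM at +4 h and 19.2 and 16.1 RPKM at +7 h (log2 fold change 0.86, limma adjusted p = 0.00292, and 0.77, 0.95, 0.73 and 0.99 with 1 library left out, called without +7 h replicate 2). Lrrn4, a leucine-rich repeat membrane protein, was at 10.3 and 11.6 RPKM at +4 h and 19.3 and 17.2 RPKM at +7 h (log2 fold change 0.73, and 0.65, 0.82, 0.65 and 0.82 with 1 library left out, no longer called). Cd81, a tetraspanin, was at 4.57 and 4.56 RPKM at +4 h and 10.4 and 7.47 RPKM at +7 h (log2 fold change 0.95, and 0.95, 0.95, 0.71 and 1.19 with 1 library left out, called without +7 h replicate 2). In these genes both +7 h libraries were above both +4 h libraries, and replicate 1 was the higher one at +7 h.

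Plau, the urokinase plasminogen activator, was at 7.39 and 6.92 RPKM at +4 h and 9.58 and 17.1 RPKM at +7 h (log2 fold change 0.84, and 0.89, 0.79, 1.25 and 0.42 with 1 library left out, called without +7 h replicate 1). Anxa8, an annexin that binds membranes, was at 5.07 and 4.11 RPKM at +4 h and 10.9 and 6.13 RPKM at +7 h (log2 fold change 0.84, and 0.99, 0.69, 0.43 and 1.25 with 1 library left out, called without +7 h replicate 2). Tmem158, a membrane protein, was at 7.72 and 8.19 RPKM at +4 h and 12.2 and 16.8 RPKM at +7 h (log2 fold change 0.85, and 0.81, 0.89, 1.08 and 0.62 with 1 library left out, called without +7 h replicate 1). For Plau replicate 2 and for Anxa8 replicate 1 was the higher of the +7 h libraries by a wide margin. Cd74, the invariant chain of MHC class II, was at 2.20 and 2.52 RPKM at +4 h and 4.60 and 6.99 RPKM at +7 h (log2 fold change 1.27, and 1.17, 1.37, 1.57 and 0.97 with 1 library left out, called without +7 h replicate 1). Sec14l4, a lipid-binding protein, was at 4.51 and 4.81 RPKM at +4 h and 8.15 and 8.50 RPKM at +7 h (log2 fold change 0.84, and 0.79, 0.88, 0.87 and 0.81 with 1 library left out, no longer called). For these both +7 h libraries were above both +4 h libraries, and none of them kept its call without replicate 1 at +4 h. Fgfbp3, a carrier of fibroblast growth factors, was at 5.25 and 7.32 RPKM at +4 h and 12.6 and 8.55 RPKM at +7 h (log2 fold change 0.74, and 0.50, 0.98, 0.46 and 1.02 with 1 library left out, called without +7 h replicate 2). Dmkn, a secreted protein of epithelia, was at 3.52 and 3.17 RPKM at +4 h and 7.35 and 4.96 RPKM at +7 h (log2 fold change 0.85, and 0.93, 0.78, 0.57 and 1.14 with 1 library left out, called without +7 h replicate 2). Replicate 1 was the higher +7 h library for both, without overlap between the time points.

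Hes6, a factor that opposes Notch effectors, was at 2.23 and 2.21 RPKM at +4 h and 4.87 and 4.22 RPKM at +7 h (log2 fold change 1.03, and 1.04, 1.02, 0.92 and 1.13 with 1 library left out, no longer called). The homeobox gene Nkx2-9 was at 1.71 and 2.38 RPKM at +4 h and 4.68 and 3.93 RPKM at +7 h (log2 fold change 1.09, and 0.85, 1.33, 0.96 and 1.21 with 1 library left out, no longer called). The time points of both were separated. Dmrtb1, a DM-domain factor, was at 0.842 and 2.52 RPKM at +4 h and 1.43 and 7.73 RPKM at +7 h and overlapped. Its log2 fold change of 1.19 was 0.40, 1.98, 2.41 and -0.03 with 1 library left out, called without +7 h replicate 1, so without replicate 2 at +7 h its direction turned. The noncoding RNA Gm45864, with 3 and 25 reads at +4 h and 27 and 58 reads at +7 h, was the other called rise with overlap (log2 fold change 1.86, and 0.38, no fold, 2.34 and 1.38 with 1 library left out, called without +4 h replicate 2 or +7 h replicate 1).

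Among the genes that rose, C2cd4a and Tmem238 were near their +4 h level again at +10 h. C2cd4a, a nuclear factor induced by inflammatory signals, was at 1.59 and 2.83 RPKM at +4 h and 3.87 and 7.58 RPKM at +7 h and at 2.48 and 2.43 RPKM at +10 h. Tmem238, a small membrane protein, was at 0.447 and 0.457 RPKM at +4 h and 1.48 and 1.90 RPKM at +7 h and at 0.548 and 0.657 RPKM at +10 h. For both genes the +10 h libraries were below both +7 h libraries, and for C2cd4a they lay within the +4 h values. Ltb4r2, a leukotriene receptor, had 7 and 13 reads at +4 h and 70 and 49 reads at +7 h, with 1.53 and 1.43 RPKM at +10 h, near the lower +7 h library. From +4 h to +7 h the log2 fold change of C2cd4a was 1.35, and 0.94, 1.77, 1.84 and 0.87 with 1 library left out, called without +4 h replicate 2 or +7 h replicate 1. That of Tmem238 was 1.89, and 1.88 and 1.91 without a +4 h library, no longer called, and not tested without a +7 h library. Ltb4r2 had a log2 fold change of 2.29, and of 1.89 and 2.69 without a +4 h library, called without +4 h replicate 2, and not tested without a +7 h library. Of the 31 genes called higher, 21 had both +10 h libraries above both +4 h libraries, against 41.4% of all tested genes, and 11 had both +10 h libraries below both +7 h libraries, against 12.8%. The 31 genes were called from the same +4 h and +7 h libraries, so nothing is read from these counts or from the return of C2cd4a and Tmem238. Tmem238 and Ltb4r2 reached 1 RPKM at +7 h alone, so a rise was built into their test.

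**Figure D3:**
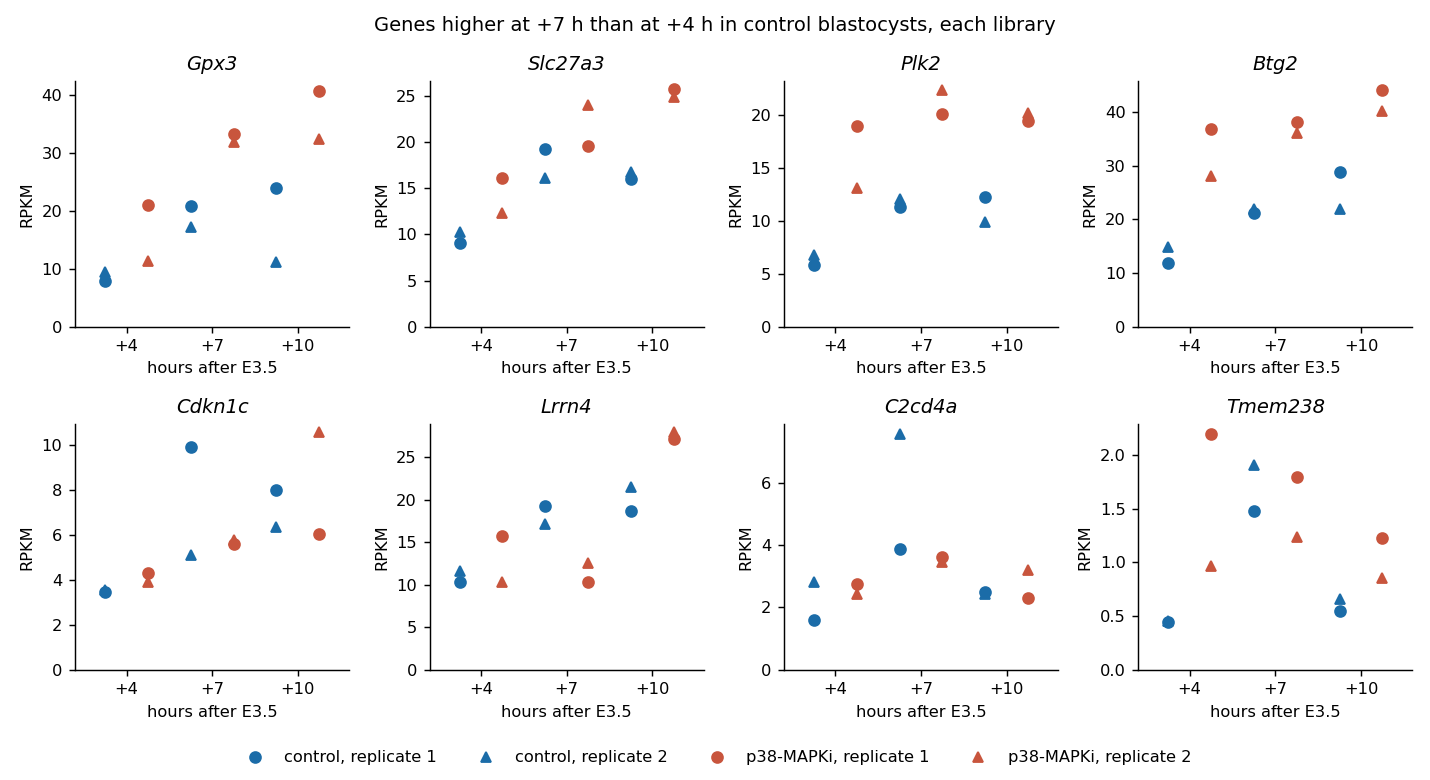
RPKM of 8 genes called higher at +7 h against hours after E3.5, 1 point per library, with control libraries in blue and p38-MAPKi libraries in red, shifted sideways for sight. In each panel both control libraries at +7 h lie above both at +4 h, and for C2cd4a and Tmem238 the control libraries at +10 h lie below those at +7 h. The genes drawn were chosen from called rises without overlap, so the separation of +7 h from +4 h was built in.

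Predicted and noncoding genes completed the rises. Gm1673, a protein-coding gene, had 5 and 11 reads at +4 h and 45 and 26 reads at +7 h (log2 fold change 1.88, and 1.35 and 2.40 without a +4 h library, called without +4 h replicate 2, and not tested without a +7 h library). Gm28038, also protein-coding, was at 2.94 and 4.93 RPKM at +4 h and 7.14 and 9.06 RPKM at +7 h (log2 fold change 1.08, and 0.71, 1.452, 1.25 and 0.91 with 1 library left out, called without +4 h replicate 2 or +7 h replicate 1). The processed transcript Gm20529 was at 8.36 and 11.9 RPKM at +4 h and 16.3 and 19.4 RPKM at +7 h (log2 fold change 0.84, and 0.58, 1.09, 0.96 and 0.71 with 1 library left out, called without +7 h replicate 1). In these both +7 h libraries were above both +4 h libraries. The long noncoding RNA 1700003M07Rik had 47 and 20 reads at +4 h and 91 and 99 reads at +7 h (log2 fold change 1.30, and 1.96, 0.64, 1.29 and 1.31 with 1 library left out, called except without +4 h replicate 2). Gm44386, another, was at 5.18 and 3.57 RPKM at +4 h and 8.94 and 7.29 RPKM at +7 h (log2 fold change 0.91, and 1.18, 0.64, 0.76 and 1.06 with 1 library left out, called without +7 h replicate 2). Replicate 2 was the lower library at +4 h for both, as it was for the genes that follow. CT030657.1 had 8 and 0 reads at +4 h and 16 and 21 reads at +7 h (log2 fold change 2.44, and no fold, 0.82, 2.57 and 2.32 with 1 library left out, called without +4 h replicate 1 or +7 h replicate 1). Gm3952 had 14 and 3 reads at +4 h and 23 and 30 reads at +7 h (log2 fold change 1.69, and no fold, 0.53, 1.81 and 1.57 with 1 library left out, called without +4 h replicate 1). Gm37416 had 12 and 4 reads at +4 h and 18 and 27 reads at +7 h (log2 fold change 1.34, and 2.18, 0.50, 1.56 and 1.12 with 1 library left out, called without +4 h replicate 1 or +7 h replicate 1).

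The called genes are set beside all tested genes by length, level and gene type. Transcript length stands here for the length that turned the deposited values into whole reads, taken first as the merged exons of a gene. Where these gave no whole reads, a single transcript, the span of the gene or a searched length was used. The median length was 1439 bases for the rises and 519.5 bases for the falls, against 3941.5 bases for all tested genes. The mean was under 5 RPKM for 16 of the 31 rises and 15 of the 22 falls, against 3846 of 10776 tested genes. Of the 53 genes, 13 had under 30 reads in each of the 4 libraries and 26 under 100. Protein-coding genes were 74.2% of the rises and 40.9% of the falls, against 95.2% of all tested genes. Among 5 classes of equal size by transcript length the median log2 fold change lay between 0.07 for the shortest genes and 0.12, with all 4 libraries. With p38-MAPKi the medians went from 0.16 for the shortest to -0.23 for the longest class. Without replicate 1 at +7 h the control medians went from -0.06 for the shortest to 0.21 for the longest class, and without replicate 2 at +7 h from 0.20 to 0.02, so the +7 h libraries differed from each other by length.

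Lists of genes with known roles were read against all tested genes, with a median log2 fold change of 0.11 that was 0.02, 0.20, 0.12 and 0.12 with 1 library left out. Of 35 tested immediate early and transient response genes, limma called 2 higher, Plk2 and Btg2, and 0 lower, against 0.288% and 0.204% of all tested genes. Without adjustment 6 higher and 1 lower had a p under 0.05, where 425 higher and 91 lower of the 10776 tested genes did. Their median was 0.26, and 0.13, 0.42, 0.23 and 0.23 with 1 library left out. Jund, a subunit of the AP-1 transcription factor and the most abundant of them, was at 143 and 183 RPKM at +4 h and 229.5 and 223 RPKM at +7 h, separated between the time points and not called (log2 fold change 0.48, limma adjusted p = 0.722). Both +7 h libraries were above both +4 h libraries in 15 of the 35 genes and below them in 2, against 25.3% and 3.69% of all tested genes. Of the 35 genes 1 reached 1 RPKM at +7 h alone, so a rise of that gene was built into these counts and into the median.

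The same rises, of Plk2 and Btg2, were the calls among 25 tested targets of p53, the transcription factor that responds to DNA damage and stress. Of all tested genes 0.288% were called higher. All 25 had a log2 fold change above 0, against 8256 of 10776 tested genes, and 23 did with each library centred on its median, against 5397. In 19 both +7 h libraries were above both +4 h libraries, against 25.3% of all tested genes. The median was 0.32, 0.29, 0.45, 0.37 and 0.30 with 1 library left out, and 0.22 with that centring. The most abundant member, Rps27l, was at 236 and 229.6 RPKM at +4 h and 324 and 208 RPKM at +7 h and overlapped.

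Of 33 genes of cholesterol and fatty acid synthesis, targets of SREBP transcription factors, limma called 0, and 11 had an unadjusted p under 0.05, all of them higher, where 425 higher and 91 lower of the 10776 tested genes did. All 33 had a log2 fold change above 0, against 8256 of 10776 tested genes, and 32 did with median centring, against 5397. In this list 23 had both +7 h libraries above both +4 h libraries, against 25.3% of all tested genes. Cyp51, an enzyme of cholesterol synthesis, was at 31.9 and 34.6 RPKM at +4 h and 50.6 and 48.9 RPKM at +7 h (log2 fold change 0.58, limma adjusted p = 0.201). Fads2, a fatty acid desaturase, was at 8.26 and 14.2 RPKM at +4 h and 17.997 and 14.6 RPKM at +7 h (log2 fold change 0.58, limma adjusted p = 0.274). Mvk, mevalonate kinase, was at 27.6 and 31.7 RPKM at +4 h and 46.5 and 38.9 RPKM at +7 h (log2 fold change 0.52, limma adjusted p = 0.405). The time points were separated in all of these, for Fads2 by little between replicate 2 at +4 h and replicate 2 at +7 h, and the most abundant gene, the desaturase Scd2, was at 144 and 157 RPKM at +4 h and 157 and 212 RPKM at +7 h, with overlap. The median of the list was 0.32, 0.20, 0.43, 0.38 and 0.33 with 1 library left out, and 0.21 with median centring. The summed level was 1355 and 1559.9 RPKM at +4 h and 1778 and 1867 RPKM at +7 h.

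Lists of the lineages held 0 genes called by limma. Of all 10776 tested genes, 425 were higher and 91 lower at an unadjusted limma p under 0.05. Among 29 trophectoderm markers the median was 0.17, and 0.02, 0.28, -0.02 and 0.32 with 1 library left out, and 1 gene was higher at an unadjusted p under 0.05. It was Ascl2, a transcription factor of trophoblast, at 1.80 and 1.28 RPKM at +4 h and 2.597 and 2.22 RPKM at +7 h. Among 18 primitive endoderm markers the median was 0.15, and 0.06, 0.29, 0.12 and 0.17 with 1 library left out, and 1 gene was higher at that level, Lamb1, a chain of laminin, at 19.2 and 24.6 RPKM at +4 h and 25.8 and 31.3 RPKM at +7 h. Among 23 epiblast markers the median was 0.02, and -0.09, 0.19, 0.05 and 0.06 with 1 library left out, with 1 gene higher and 2 lower at that level. Lrp2 and Dab2 stand in the lists of both trophectoderm and primitive endoderm. The summed levels were 3453 and 3790.4 RPKM at +4 h and 4709 and 3620.3 RPKM at +7 h for trophectoderm, 355 and 403 RPKM at +4 h and 408 and 440.4 RPKM at +7 h for primitive endoderm and 1680.4 and 1958 RPKM at +4 h and 2037 and 1812 RPKM at +7 h for epiblast. The epiblast gene with the lowest p was Tdgf1, a co-receptor of Nodal, at 17.5 and 21.7 RPKM at +4 h and 15.4 and 10.3 RPKM at +7 h, with both +7 h libraries below both +4 h libraries (log2 fold change -0.63, limma adjusted p = 0.139). Spp1, the secreted protein osteopontin, was at 42.5 and 49.0 RPKM at +4 h and 39.9 and 29.5 RPKM at +7 h, separated in the same way. Klf4, a pluripotency factor, was at 14.4 and 17.96 RPKM at +4 h and 20.5 and 21.3 RPKM at +7 h, separated in the other direction, and none of these passed the test. The most abundant markers were Krt18, a keratin of the trophectoderm, at 909 and 989 RPKM at +4 h and 1294 and 972 RPKM at +7 h, and Dppa5a, a pluripotency gene, at 572 and 637 RPKM at +4 h and 801 and 524 RPKM at +7 h, both with overlap.

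Genes of the blastocyst cavity, which are pumps, water channels and junction proteins, had a median of 0.18 over 22 tested genes, and of 0.05, 0.32, 0.15 and 0.20 with 1 library left out. Limma called 0 of them, and 3 had an unadjusted p under 0.05, all higher, where 425 higher and 91 lower of the 10776 tested genes did. Atp12a, a proton and potassium pump, was at 7.73 and 7.35 RPKM at +4 h and 11.9 and 9.97 RPKM at +7 h, and Cgn, the tight junction protein cingulin, at 15.6 and 17.1 RPKM at +4 h and 21.8 and 20.9 RPKM at +7 h. Both were separated between the time points without a call. Cldn6, a claudin, was at 91.6 and 101 RPKM at +4 h and 151 and 104 RPKM at +7 h, with replicate 2 at +7 h close to the +4 h libraries, and Cldn4, another claudin and the most abundant member, was at 556 and 592 RPKM at +4 h and 782 and 630.2 RPKM at +7 h. Targets and regulators of YAP, the effector of Hippo signalling, had a median of 0.23 over 11 tested genes, and of 0.17, 0.33, 0.32 and 0.19 with 1 library left out, where limma called 0 and 1 was higher at an unadjusted p under 0.05. That gene was Amotl2, which binds YAP, at 18.97 and 19.6 RPKM at +4 h and 25.7 and 24.7 RPKM at +7 h.

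Cytosolic ribosomal proteins, abundant short mRNAs, had a median of -0.05 over 83 tested genes, and of -0.06, -0.02, -0.28 and 0.17 with 1 library left out, with 0 called by limma and 0 at an unadjusted p under 0.05. Of all 10776 tested genes, 425 were higher and 91 lower at that level. The summed level of the ribosomal proteins was 20124 and 20619 RPKM at +4 h and 22779 and 17601 RPKM at +7 h, and replicate 2 at +7 h held the lowest and replicate 1 at +7 h the highest sum. The list of the respiratory chain and ATP synthase had a median of 0.03 over 97 genes, and of -0.02, 0.09, -0.19 and 0.24 with 1 library left out, with 0 called by limma and 2 higher at an unadjusted p under 0.05. These were Cox6b2, a subunit of cytochrome c oxidase, at 11.6 and 11.7 RPKM at +4 h and 19.6 and 14.8 RPKM at +7 h, and Ndufaf3, an assembly factor of complex I, at 5.74 and 7.78 RPKM at +4 h and 11.4 and 7.93 RPKM at +7 h. Both were separated between the time points without a call, and for Ndufaf3 replicate 2 at +7 h was near replicate 2 at +4 h. The sums of the list were ordered in the same way at +7 h, 7351 and 7811 RPKM at +4 h and 9002 and 6738 RPKM at +7 h. The 13 genes of the mitochondrial genome, which every cell transcribes, are listed at 0 in all 12 libraries, so the values hold no measure of their level.

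Other lists held 0 called genes in the limma test apart from the imprinted genes, whose call was Cdkn1c among 16 tested members with a median of 0.12, and 0.07, 0.16, 0.14 and 0.11 with 1 library left out. Of the imprinted genes 3 were higher, Cdkn1c among them, and 1 was lower at an unadjusted limma p under 0.05. For the lists of this paragraph, 0.288% of all tested genes were called higher. At the unadjusted level 425 of the 10776 were higher and 91 lower. The integrated stress response had a median of -0.01 over 30 tested genes, and -0.16, 0.19, -0.01 and -0.03 with 1 library left out, where 1 gene was higher and 3 lower at an unadjusted p under 0.05. The higher one was Cebpb, a transcription factor, at 2.61 and 4.88 RPKM at +4 h and 4.06 and 8.17 RPKM at +7 h (log2 fold change 0.69, limma adjusted p = 0.280). Among the lower ones were Asns, asparagine synthetase, at 10.5 and 15.4 RPKM at +4 h and 10.4 and 7.44 RPKM at +7 h (log2 fold change -0.54, limma adjusted p = 0.443), and Herpud1, a protein of endoplasmic reticulum degradation, at 4.84 and 9.37 RPKM at +4 h and 4.20 and 4.72 RPKM at +7 h (log2 fold change -0.60, limma adjusted p = 0.443). Cebpb overlapped between the time points, and in Asns and Herpud1 both +7 h libraries were below both +4 h libraries. Hypoxia and glycolysis had a median of 0.20 over 22 genes, and 0.05, 0.33, 0.14 and 0.26 with 1 library left out, with 3 genes higher and 1 lower at an unadjusted p under 0.05. Among the higher ones were Pfkm, a phosphofructokinase, at 2.89 and 3.85 RPKM at +4 h and 4.12 and 5.89 RPKM at +7 h, P4ha2, a prolyl hydroxylase of collagen, at 9.31 and 11.2 RPKM at +4 h and 13.1 and 14.2 RPKM at +7 h, and Pgam1, a phosphoglycerate mutase, at 9.58 and 12.1 RPKM at +4 h and 15.9 and 12.6 RPKM at +7 h. In these both +7 h libraries were above both +4 h libraries. The lowest log2 fold change of this list was -0.38. Its lower gene stood outside the 3 lowest p that the naming rule takes, as did the remaining lower gene of the stress response, and neither is named. Heat shock had a median of 0.04 over 14 genes, and -0.06, 0.24, 0.05 and 0.04 with 1 library left out, with 2 genes higher at an unadjusted p under 0.05, the small chaperones Hspb1, at 19.7 and 22.6 RPKM at +4 h and 39.0 and 22.1 RPKM at +7 h, and Hspb8, at 26.2 and 22.8 RPKM at +4 h and 34.0 and 29.5 RPKM at +7 h. Hspb1 overlapped and Hspb8 did not. FGF-ERK feedback had a median of 0.05 over 13 genes, and -0.03, 0.13, 0.16 and -0.04 with 1 library left out, with 1 gene higher at that level, Dusp4, a phosphatase of ERK, at 11.3 and 9.55 RPKM at +4 h and 12.5 and 15.3 RPKM at +7 h.

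The lists that follow held 0 genes at an unadjusted p under 0.05 and 0 called by limma. The median of the unfolded protein response was 0.07 over 19 genes, and -0.05, 0.20, 0.11 and 0.01 with 1 library left out. For mitosis it was 0.09 over 35 genes, and -0.01, 0.16, 0.15 and 0.01 with 1 library left out. NRF2 targets had a median of 0.10 over 19 genes, and 0.02, 0.16, 0.13 and 0.18 with 1 library left out, and metallothioneins and zinc one of 0.03 over 4, and 0.004, 0.04, 0.01 and 0.08 with 1 library left out. The p38-MAPK family itself had a median of 0.15 over 8 genes, and 0.12, 0.18, 0.14 and 0.18 with 1 library left out, and BMP and TGF-beta feedback one of 0.04 over 5, and -0.09, 0.07, 0.01 and 0.15 with 1 library left out. The 18 small nucleolar RNA host genes had a median of -0.05, and -0.12, -0.01, -0.19 and 0.06 with 1 library left out. The 2 microRNA precursors had one of -0.23, and -0.19 without replicate 1 at +4 h, and the 3 genes of the X and Y chromosomes one of -0.01, and -0.09, 0.14, -0.03 and -0.0004 with 1 library left out. Xist, the X inactivation transcript, was at 40.8 and 38.5 RPKM at +4 h and 32.0 and 44.2 RPKM at +7 h, and Ddx3y of the Y chromosome at 6.90 and 9.69 RPKM at +4 h and 8.17 and 8.02 RPKM at +7 h, with overlap in both. With each library centred on its median, the medians of the lists of the respiratory chain, epiblast, FGF-ERK feedback, BMP and TGF-beta feedback, unfolded protein response, heat shock, NRF2 targets, metallothioneins and mitosis were below 0.

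**Figure D4:**
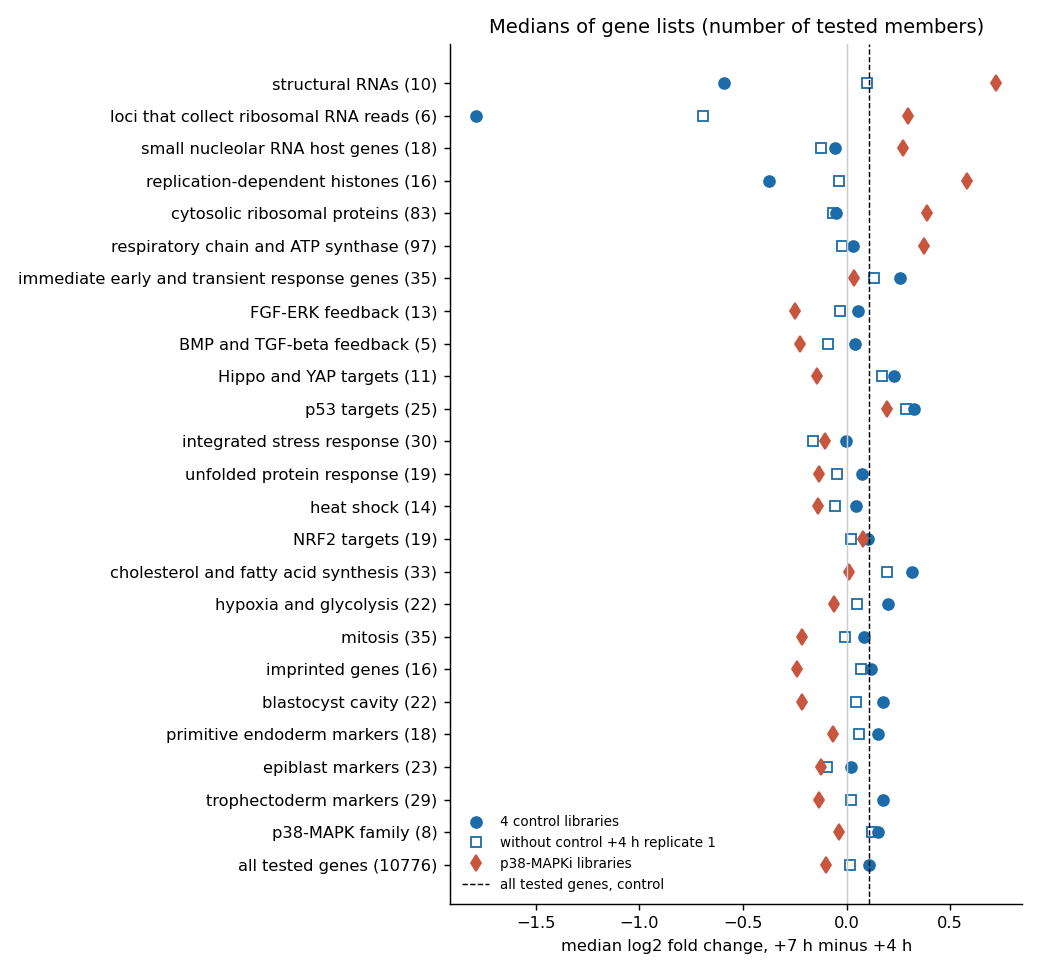
Median log2 fold change from +4 h to +7 h for each gene list with at least 5 tested members, with filled circles for the 4 control libraries, open squares without control replicate 1 at +4 h and red diamonds for the p38-MAPKi libraries. The dashed line is the control median of all tested genes, 0.11, and the ribosomal RNA loci lie furthest from it at -1.79.

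The p38-MAPKi libraries of the same time points share no library with the controls and show the called genes in embryos with the inhibitor. These libraries held 24337845 and 21618041 reads at +4 h and 11242313 and 17435561 at +7 h. Of the 31 genes that rose in the controls, 22 (71.0%) had a log2 fold change above 0 with p38-MAPKi, against 38.3% of all tested genes, and in 16 both +7 h libraries were above both +4 h libraries, against 15.8% of all tested genes. These shares move with transcript length. In the shortest of the 5 length classes, with 21 of the 31 rises, 14 (66.7%) were above 0 and 9 (42.9%) had both +7 h libraries above both +4 h libraries, against 64.2% and 32% of all tested genes of that class. In the next class 7 of 7 rises were above 0 and 6 (85.7%) had both +7 h libraries above, against 46.7% and 19.2%. The class after that held 3 rises, of which 1 was above 0 and 1 had both above, against 34.4% and 13.6%. Among the 23 protein-coding genes of the 31 rises the number above 0 was 19. The median log2 fold change of the 31 genes was 1.08 in the controls (1.03 with Gm25820 at a floor of 3 reads per library) and 0.47 with p38-MAPKi, where the median of all tested genes was -0.10. These genes were called from the control libraries, so the size of the control median was built in. Nothing is read from the gap between the medians. Gpx3 was at 21.1 and 11.4 RPKM at +4 h and 33.3 and 32.0 RPKM at +7 h with p38-MAPKi, and Plk2 was at 18.96 and 13.1 RPKM at +4 h and 20.1 and 22.4 RPKM at +7 h. Both inhibitor libraries at +7 h were above both at +4 h for these genes, and the level of Plk2 at +4 h was already above that of every control library at +4 h and +7 h.

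For the 22 genes that fell in the controls the log2 fold change with p38-MAPKi was below 0 in 3 and above 0 in 19 (86.4%), and in 0 of them were both inhibitor libraries at +7 h below both at +4 h, against 24.9% of all tested genes. In 6 both were above, against 15.8%. The shortest length class held 19 of the 22, of which 17 (89.5%) were above 0, 6 (31.6%) had both inhibitor libraries at +7 h above and 0 had both below, against 64.2%, 32% and 12.1% of all tested genes of that class. Their median was -1.90 in the controls (-1.77 with AC118222.2 at the same floor) and 0.47 with p38-MAPKi. The falls too were called from the control libraries, so nothing is read from the gap between these medians. Gm42418 was at 3143 and 4115 RPKM at +4 h and 7353 and 2706 RPKM at +7 h with p38-MAPKi, Rmrp at 23.5 and 31.4 RPKM at +4 h and 66.6 and 19.7 RPKM at +7 h and Rpph1 at 9.15 and 10.6 RPKM at +4 h and 40.4 and 12.05 RPKM at +7 h. The high library in each was replicate 1 at +7 h, the one with the fewest reads, in which the ribosomal RNA loci took 1.67% of the reads (1.66 to 1.68%, Wilson), against 0.622% (0.619 to 0.626%) in replicate 2. The part of this library, of transcript length and of control replicate 1 at +4 h in the opposite directions was not tested.

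The difference of the change between control and p38-MAPKi was tested on the 8 libraries of +4 h and +7 h. Limma called 1 of 11311 genes (0.00884%), Hist1h2ak, and 772 genes had an unadjusted p under 0.05. Hist1h2ak was at 0.523 and 0.824 RPKM at +4 h and 2.72 and 2.19 RPKM at +7 h with p38-MAPKi, so both inhibitor libraries were higher at +7 h where both control libraries were lower. The control change minus the p38-MAPKi change was -5.50 on the log2 scale (standard error 0.695, limma unadjusted p = 3.47e-06, adjusted p = 0.0393). It rests on 5 reads in the control libraries at +7 h, and among the 8 libraries of this fit the gene reached 1 RPKM in the control +4 h and p38-MAPKi +7 h libraries alone. The gene passed the filter only through groups where it was high, so its direction was built into this test. Hist1h2ak was called without p38-MAPKi +7 h replicate 1 (-5.34) or replicate 2 (-5.65). It was not called without control +4 h replicates 1 and 2 (-5.20 and -5.79) or p38-MAPKi +4 h replicates 1 and 2 (-5.17 and -5.82). It was not called without control +7 h replicates 1 or 2 either, where 3 and 2 reads were left at that time point and no fold is given.

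**Figure D5:**
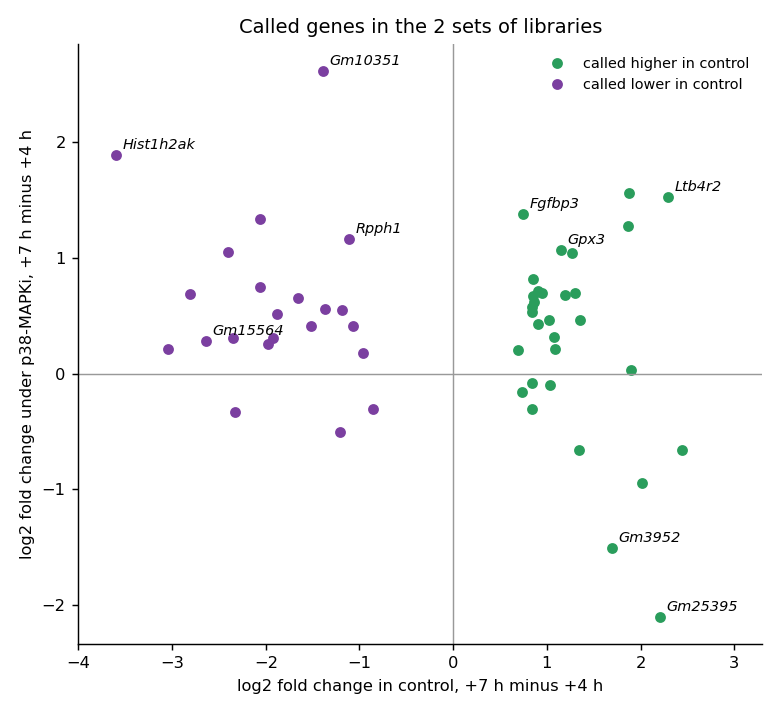
Log2 fold change from +4 h to +7 h with p38-MAPKi against that in the controls, 1 point per called gene, with genes called higher in the controls in green and lower in purple. Of the green points 22 of 31 lie above 0 on the vertical axis, and of the purple points 19 of 22 do, with Hist1h2ak at the far left.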

How the data were processed

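The deposited values were log2 RPKM made by the authors, who trimmed reads with Trim Galore 0.4.1, mapped them to GRCm38 with HISAT2 2.0.5 and counted them per gene in SeqMonk, with 0.9 of a read written for a gene without reads. Libraries came from poly(A)-selected RNA and a directional kit, and neither the strand option nor the treatment of reads with several places is stated. Whole reads were recovered for all 34245 genes with a tolerance of 0.02 reads, and 31733 genes were matched to GENCODE M21 by position and 2391 by symbol. Depth was 17097675 to 23352633 reads in the 4 control libraries, and shares of reads carry Wilson intervals.

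The control libraries at +7 h were tested against those at +4 h with limma 3.58.1 in R 4.3.3, with the variance trend on mean expression and Benjamini-Hochberg adjustment over all tested genes at a threshold of 0.05. The method was tested on simulated data. The change in control minus that in p38-MAPKi was tested with limma on 8 libraries, for genes with at least 1 RPKM in 2 of them. Tables and figures were made with Python 3.11.15.

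Members, lists and the naming rule were chosen with earlier results of these data known. The rule named, among called genes, the 15 largest rises and 15 largest falls whose libraries did not overlap, all called genes that overlapped, and from each of 32 gene lists the called members, else the 3 with the lowest p, and the most abundant. Of such members without a call, the text gives those with an unadjusted p under 0.05 and leaves out some of the others. Structural RNAs were also added to their list by GENCODE gene type once the table was at hand. Lrrn4, Fgfbp3, Sec14l4, Anxa8, Gm20529, Plau, Tmem158, Dmkn, Slc27a3, Gm44386 and Cd81 fall outside the rule and, like CT010467.1 and the marker genes named for a count of 0, were chosen after their values were seen, as were the genes drawn and the sequences shown. Alternatives were the variance model, scaling, filter, pseudocount, threshold, replicate block, libraries in the fit, transcript length, recovered reads and leaving out each library.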

Additional observations from a re-analysis of the deposited data

Results flagged for a closer look

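For Hist1h2ak, a histone H2A gene, the change from +4 h to +7 h in control minus that in p38-MAPKi was -5.4952 on the log2 scale in the fit over 8 libraries. Both control libraries at +7 h were below both at +4 h, and both p38-MAPKi libraries at +7 h were above both at +4 h. The control values rest on 28 and 20 reads at +4 h and 2 and 3 reads at +7 h, and among the 8 libraries of this fit the gene reached 1 RPKM in the control +4 h and p38-MAPKi +7 h libraries alone. It passed the filter only through groups where it was high, so its direction was built into the test. The call was lost when any control library or any p38-MAPKi +4 h library was left out.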

How the results depend on the processing

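Fits with limma called 53 genes between control +4 h and +7 h. The count was 5 without the variance trend, 12 of 5007 genes at 10 RPKM or more, 9 with voom on recovered reads and 1, Hist1h2ak, with the 6 control libraries in 1 fit. Among the 12 genes, Gpx3, Plk2 and Tmem158 reached 10 RPKM at +7 h alone, so a rise was built into their test at that limit. The count was 0 with median centring (320 genes with an unadjusted p under 0.05), quantile normalization (327), no filter (6528 of 34245), the 12 libraries in 1 fit (312) and the ribosomal RNA loci left out of the library totals (372), an alternative chosen after seeing the data. The replicate block gave 0 (426), and the correlation over genes of the deviations of the replicate 1 libraries was 0.067. Leaving out 1 library gave 10 to 58 genes, where a lone library is assumed to vary like those of the other group. Pseudocounts of 1 and 0.1, a threshold of 0.1 and removal of the length trend gave 52, 54, 64 and 52, with 49, 52, 53 and 45 of the 53 genes. Under these alternatives no called gene changed direction except Rpph1, from 0.9130 without control +4 h replicate 1 to -3.1455 without replicate 2, and Dmrtb1, from -0.0254 without control +7 h replicate 2 to 2.4064 without replicate 1.

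The difference of the change between control and p38-MAPKi, 1 gene, was 0 in limma without the trend (584 with an unadjusted p under 0.05), with median centring (602), quantile normalization (695), at 10 RPKM or more (511), with the replicate block as pairing (704) and without the ribosomal RNA loci in the totals (734). Leaving out 1 library gave 0 to 293 genes, the highest without p38-MAPKi +7 h replicate 2, and 0 went with 276 genes at an unadjusted p under 0.05 without control +4 h replicate 1. Without a filter limma called 1 gene, which was not Hist1h2ak. The cause was not tested where fewer libraries or genes do not give it. Runs of edgeR and DESeq2 were planned for deposited counts alone and were not made on the recovered reads, where voom was. With 2 pools a group and 13 of the 53 genes under 30 reads in each library, few reads limit the values of weak genes.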

Other observations

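Genes without a call gave further values. Cd68, a lysosomal protein of macrophages that other cells also express, was at 2.65 and 2.83 RPKM in the control +4 h libraries and at 4.60 and 4.43 RPKM at +7 h, with no overlap and no call. Amh, an ovarian hormone gene of the cumulus and oviduct list, had 2 and 4 reads at +4 h and 16 and 22 reads at +7 h. Inha of the same list had 0 and 0 reads at +4 h and 2 and 22 at +7 h, so replicate 2 at +7 h stood apart for it.

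At +10 h the loci that collect ribosomal RNA reads took 0.615% (0.611 to 0.618%) and 0.464% (0.462 to 0.467%) of the reads in the control libraries, with Wilson intervals, below both +4 h libraries. With p38-MAPKi the shares were 0.729% (0.726 to 0.733%) and 0.953% (0.949 to 0.957%) at +4 h, 1.67% (1.66 to 1.68%) and 0.622% (0.619 to 0.626%) at +7 h and 0.500% (0.497 to 0.502%) and 0.519% (0.516 to 0.522%) at +10 h.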
